A study of Mus musculus with 24 samples.

Results

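Serotonin acts on a family of cell-surface receptors, and 10 of their genes (Htr1a, Htr1b, Htr2a, Htr2b, Htr2c, Htr3a, Htr4, Htr5a, Htr6 and Htr7) were followed in the hippocampus of neonatal mice given morphine together with stress. The genes were taken from the gene names of the array design, and each of their 14 probes was kept, whatever its level. They are 10 of 36163 gene names on the array, and their 14 probes are among 55681 non-control probes. Htr2c had 3 probes, Htr4 and Htr6 had 2 each, and the other genes had 1 each.

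The mice were C57BL/6 and described as male, though sex-linked genes on an array named below read otherwise. They were killed on postnatal day 9, and treatment had begun on postnatal day 5. Untreated controls (Con) were reared by the dam with minimal handling. The MS2 group received subcutaneous morphine at 2 mg/kg and the MS5 group at 5 mg/kg, and both groups were also isolated daily from the dam in a warmed chamber and exposed each day to nitrogen and then oxygen to mimic apnea. The effects of morphine and of the stress protocol therefore cannot be told apart in a contrast with Con, whereas MS5 and MS2 shared the stress and differed in dose. RNA from both hippocampi of a mouse was pooled and put on 1 of 15 1-colour Agilent arrays, 5 for each group, and each array came from a different mouse.

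Serotonin released from raphe axons reaches the hippocampus through receptors that differ in how they signal. Htr1 and Htr5 receptors couple to inhibitory G proteins, Htr2 receptors couple to Gq and phospholipase C, Htr4, Htr6 and Htr7 couple to Gs and adenylyl cyclase, and Htr3a forms a ligand-gated cation channel found in the forebrain mainly in interneurons. Htr2c is transcribed in neurons and is also a characteristic transcript of the choroid plexus epithelium, and its mRNA undergoes RNA editing that recodes the receptor.

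Of the 14 probes, Htr2c A_55_P2068461 had the smallest unadjusted limma p with all arrays. The 2 Htr2c probes that lie in coding sequence are shown here as deposited in the array design (mm9, plus strand, 60 bases each). Probe A_55_P2068461 (chrX:143604149-143604208) lies in the stretch just before the codons that editing recodes, and it is the only receptor probe that passed an unadjusted limma p under 0.05 with all arrays. Probe A_55_P2158921 (chrX:143629079-143629138) ends at the stop codon, and its last 12 bases, in capitals, hold the codons of the serine-serine-valine tail that binds PDZ proteins, followed by the stop.
Htr2c A_55_P2068461: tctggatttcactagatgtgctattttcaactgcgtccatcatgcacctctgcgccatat
Htr2c A_55_P2158921: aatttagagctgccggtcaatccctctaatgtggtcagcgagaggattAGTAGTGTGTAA
The other Htr2c probe, A_55_P1977503 (chrX:143631655-143631714), lies downstream of both on the same strand.

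Levels are log2 normalized signals from the authors' table, and differences are on the same log2 scale. Each probe hybridizes with its own strength, so levels are compared between groups and never between probes. Spots of 11 of the 14 probes were well above local background on all 15 arrays. Htr2b reached this on 12 arrays, Htr1b on 9 (2 Con, 3 MS2 and 4 MS5) and the second Htr4 probe, A_52_P581594, on 3, so for these dim probes a difference could be hidden by background. The median spot signal was 58.2 on MS2 replicate 5 and 121 to 154 on the other arrays, 67.1% to 79.0% of spots were well above background, and 0 spots were saturated.

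Several arrays stood apart in genes that mark cell types, and the values that moved most with them are also given without them. MS2 replicate 4 had the lowest value of all 15 arrays at 15 of 15 markers of hippocampal principal neurons and the highest at 8 of 14 markers of thalamus and hypothalamus. Its mean over the principal neuron list was -1.89 relative to the Con mean, where the other 14 arrays lay between -0.44 and 0.09, and Neurod6, a transcription factor of these neurons, read 10.02 there and 13.03 to 13.89 elsewhere. MS5 replicates 9 and 14 had the lowest means over 29 choroid plexus markers, at -1.76 and -2.44, where the other arrays lay between -0.74 and 0.41. MS5 replicate 9, labelled male, also carried Xist at 11.34 against at most 6.08 elsewhere, and the Y-linked Ddx3y at 6.24 against at least 11.01. The Y-linked Eif2s3y, Kdm5d and Uty were likewise lower there than on any other array. All 15 principal neuron markers were well above background on every array, MS2 replicate 4 included. The thalamus and hypothalamus markers did not all move one way on that array, since Prkcd read 10.32 there and 10.86 to 11.68 elsewhere. Of the lists for GABAergic interneurons, raphe neurons, astrocytes, oligodendrocytes, microglia, endothelium, meninges and blood, 0 genes had an unadjusted p under 0.05 for MS2 versus Con. For MS5 versus Con, 1 of 16 interneuron markers was higher, 1 of 7 endothelial markers was higher and 2 lower, 1 of 4 blood markers was lower, and 0 passed in the other lists. Of the 14 thalamus and hypothalamus markers, 4 were higher in MS5 at that threshold and 0 in MS2. The mean over this list was between -0.03 and 1.03 on the MS5 arrays and 2.08 on MS2 replicate 4. The list holds Trh and Avp, which the paper gives as raised in MS5 on these arrays, so its count is not an independent test. Over all gene names by their brightest probe, 3.95% passed that threshold for MS2 versus Con and 4.23% for MS5 versus Con, in either direction. In these bulk RNA samples fewer cells of a type and less RNA per cell cannot be told apart.

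In limma, 0 of the 14 receptor probes passed an adjusted p under 0.05 in any of the 3 contrasts, where 0% of all probes did so too. Their adjusted p was at least 0.970 for MS2 versus Con and 1.00 in both contrasts of MS5. At an unadjusted p under 0.05 the counts were 0 of 14 for MS2 versus Con, 1 for MS5 versus Con and 1 for MS5 versus MS2, against a background of 4.17%, 3.90% and 3.97% of all probes (2324, 2173 and 2211 probes). The study's own rule, values more than 1.5-fold apart at an unadjusted p under 0.05, was met by 0 of 14 receptor probes in each contrast and by 0.0233%, 0.228% and 0.129% of all probes. Groups did not overlap at 0 of 14 receptor probes in any contrast, against 0.702%, 0.828% and 0.621% of all probes. The shares among the receptor probes were thus near the background, and the single probe past the unadjusted threshold was Htr2c A_55_P2068461 in both contrasts of MS5.

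**Figure D1:**
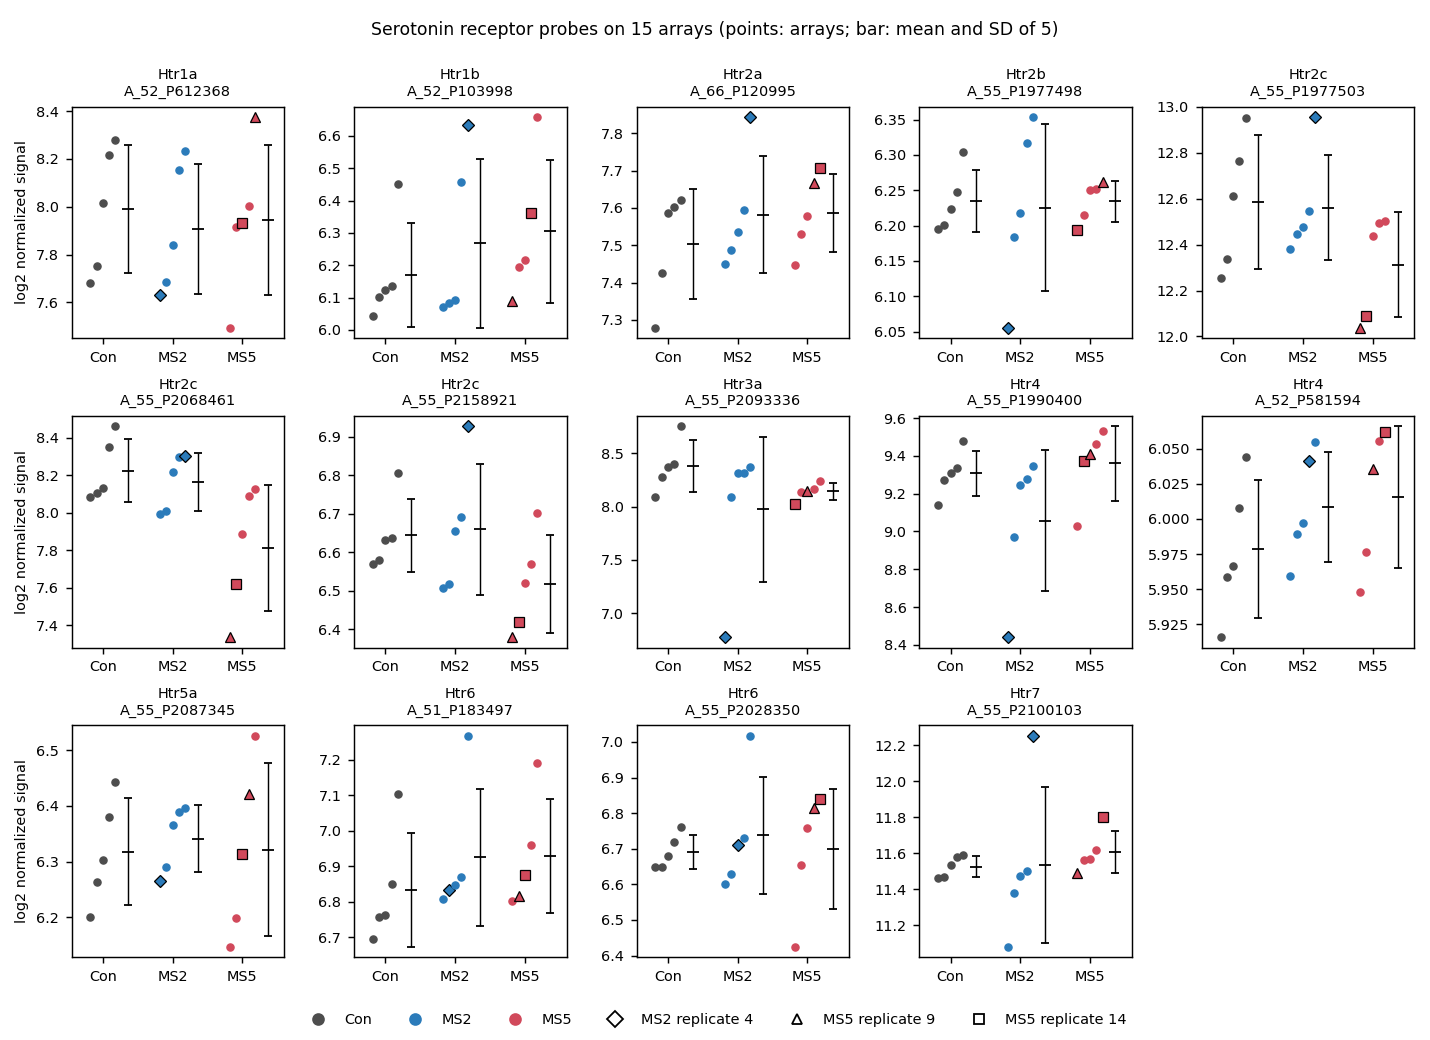
Log2 normalized signal of the 14 serotonin receptor probes on each of 15 arrays, with a separate vertical scale for each probe and the mean and SD of 5 arrays beside each group. MS5 replicates 9 and 14 (triangle and square) are the lowest arrays at all 3 Htr2c probes, and MS2 replicate 4 (diamond) is the lowest at Htr3a and the first Htr4 probe and the highest at Htr7.

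The median difference over the 14 receptor probes was 0.01 in each of the 3 contrasts, and over all probes it was -0.00, 0.00 and 0.00. Their median size regardless of sign was 0.05 for MS2 versus Con, 0.08 for MS5 versus Con and 0.04 for MS5 versus MS2, against 0.05, 0.04 and 0.05 over all probes. Outside Htr2c the 95% intervals of the differences from Con ran from -0.92 to 0.37 in MS2 and from -0.75 to 0.41 in MS5, and both lower ends belonged to Htr3a. A 1.5-fold difference is 0.585 on this scale. With the authors' normalized values, the intervals of Htr3a alone reached it against Con outside Htr2c. The size at dim probes depended on the processing. Over the alternatives tried, the Htr1b difference of MS5 from Con was at most 0.71, in place of 0.13. In fits that left out 1 array it was at most 0.20. For Htr4 A_52_P581594 the difference of MS5 from Con was at most 0.45 over the alternatives. A 1.5-fold difference is therefore not excluded at these dim probes.

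**Figure D2:**
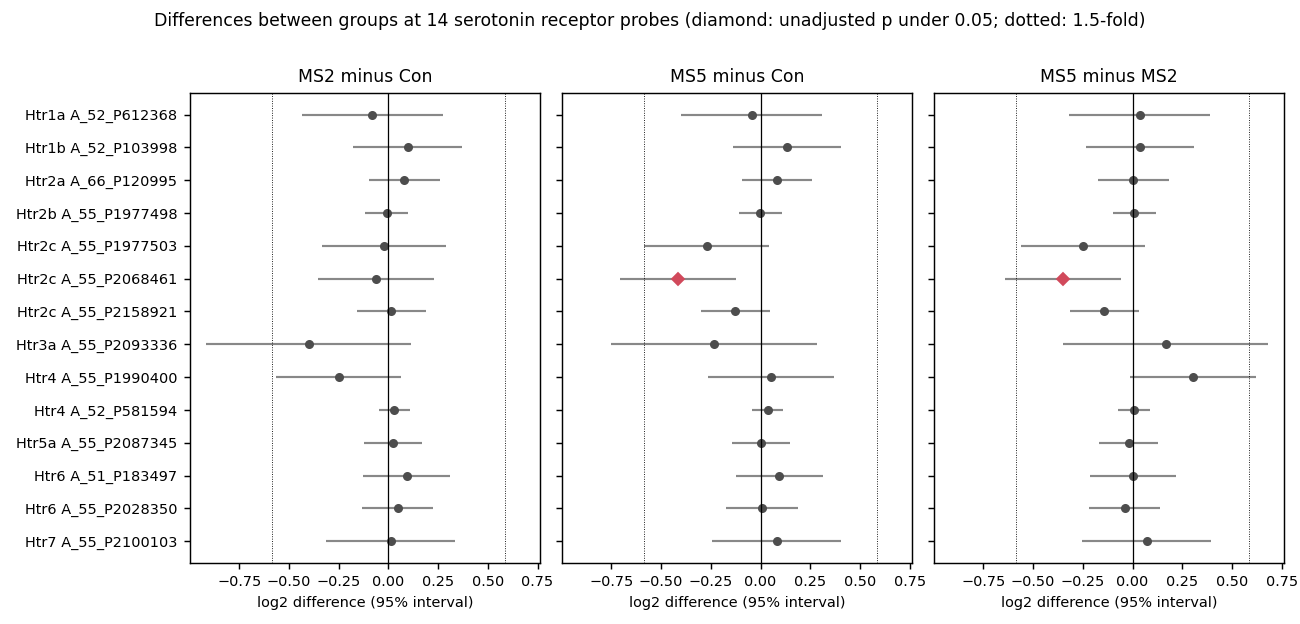
Log2 differences between groups for the 14 receptor probes with 95% intervals from limma. The intervals leave out 0 only at Htr2c A_55_P2068461 in the contrasts of MS5 (diamonds), and the dotted lines mark a 1.5-fold difference.

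Htr2c encodes the Gq-coupled 5-HT2C receptor, and all 3 of its probes were lower on average in MS5 than in Con. At A_55_P2068461 the log2 levels were 8.08, 8.10, 8.13, 8.35 and 8.46 in Con, 7.99, 8.01, 8.22, 8.30 and 8.31 in MS2, and 7.34, 7.62, 7.89, 8.09 and 8.13 in MS5. Of the MS5 arrays, 3 lay below every Con array and the other 2 lay within the Con range, so the groups overlapped. The mean difference from Con was -0.41 (SE 0.14, 95% interval -0.70 to -0.12), a fold of 1.33 downward, with a limma p of 0.00878 and an adjusted p of 1.00 (exact permutation p = 0.0476, two-sided, smallest possible 0.00794). Against MS2 it was -0.35 (limma p = 0.0215, adjusted p = 1.00, exact permutation p = 0.0635). MS2 itself differed from Con by -0.06 with an interval of -0.35 to 0.23.

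The lowest values of this probe were those of MS5 replicates 9 (7.34) and 14 (7.62). Without replicate 9 the difference of MS5 from Con was -0.29 (limma p = 0.0228, exact permutation p = 0.0794), and without replicate 14 it was -0.36 (limma p = 0.0252, exact permutation p = 0.0556). With both left out it was -0.19 (limma p = 0.0981, exact permutation p = 0.196), and the difference from MS2 was -0.13 (limma p = 0.249, exact permutation p = 0.304). The exact permutation p was thus under 0.05 with all arrays, but not with either of these arrays left out. The arrays lay on 2 slides, each with all 3 groups. With the slide as a block the difference from Con was -0.39 (limma p = 0.0139, exact permutation p within slides = 0.070). Within slide 1, with 2 MS5 arrays and 3 Con arrays, it was -0.22, and within slide 2, with 3 MS5 arrays and 2 Con arrays, it was -0.54. Slide 2 held both low MS5 arrays.

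At the downstream probe A_55_P1977503 the Htr2c levels were 12.25, 12.34, 12.61, 12.76 and 12.95 in Con, 12.38, 12.44, 12.47, 12.54 and 12.95 in MS2, and 12.04, 12.09, 12.44, 12.49 and 12.50 in MS5. MS5 replicates 9 and 14 were again the lowest, and the highest value in MS2 was that of replicate 4. MS5 differed from Con by -0.27 (95% interval -0.58 to 0.04, limma p = 0.0840, exact permutation p = 0.135), and by -0.11 with MS5 replicates 9 and 14 left out. At the stop-codon probe A_55_P2158921 the levels were 6.57, 6.58, 6.63, 6.64 and 6.80 in Con, 6.51, 6.52, 6.65, 6.69 and 6.93 in MS2, and 6.38, 6.42, 6.52, 6.57 and 6.70 in MS5. Here the difference of MS5 from Con was -0.13 (95% interval -0.30 to 0.05, limma p = 0.140, exact permutation p = 0.151), and -0.05 with MS5 replicates 9 and 14 left out. The mean of the 3 probes differed by -0.27 between MS5 and Con (limma p = 0.0301, exact permutation p = 0.0794) and by -0.02 between MS2 and Con (limma p = 0.841, exact permutation p = 0.825). The probes moved together across arrays: the correlation of their deviations from group means over 15 arrays was 0.80, 0.75 and 0.73 for the 3 pairs.

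Because Htr2c is also a choroid plexus transcript, its levels were set beside 29 choroid plexus markers. In MS5, 29 of 29 had a lower mean than in Con, with a median difference of -1.13. An unadjusted p under 0.05 was reached by 23 and an adjusted p under 0.05 by 0. Over all gene names by their brightest probe, 4.23% passed the unadjusted threshold. The list was chosen with earlier results known. It holds genes that the paper lists as lowered in MS5 on these arrays, among them Kl, Folr1, Aqp1, Calml4 and Cldn2. The counts therefore describe the list and are not an independent test. In MS2, 23 of 29 had a lower mean, 0 passed the unadjusted threshold and the median difference was -0.24. Transthyretin (Ttr), the thyroxine carrier secreted by this epithelium, read 15.93 on MS5 replicate 9 and 12.84 on MS5 replicate 14 and 17.50 to 18.15 on the others, so it was far above background on every array. The mean over the list, relative to the Con mean, ran from -0.44 to 0.41 in Con, from -0.42 to 0.14 in MS2 and from -2.44 to -0.11 in MS5.

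The deviations of Htr2c A_55_P2068461 from the group means correlated with those of the 29 markers at a median of 0.74 (range 0.28 to 0.92, 15 arrays), where the median over all probes well above background was -0.04. For A_55_P1977503 the median was 0.57 and for A_55_P2158921 it was 0.39. With MS5 replicates 9 and 14 left out the medians were 0.64, 0.40 and 0.04. These correlations describe arrays that share their tissue sample and normalization. With those arrays left out, the choroid plexus list differed between MS5 and Con by -0.39 on average, in place of -1.08. The part of choroid plexus RNA in the Htr2c difference was not tested.

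**Figure D3:**
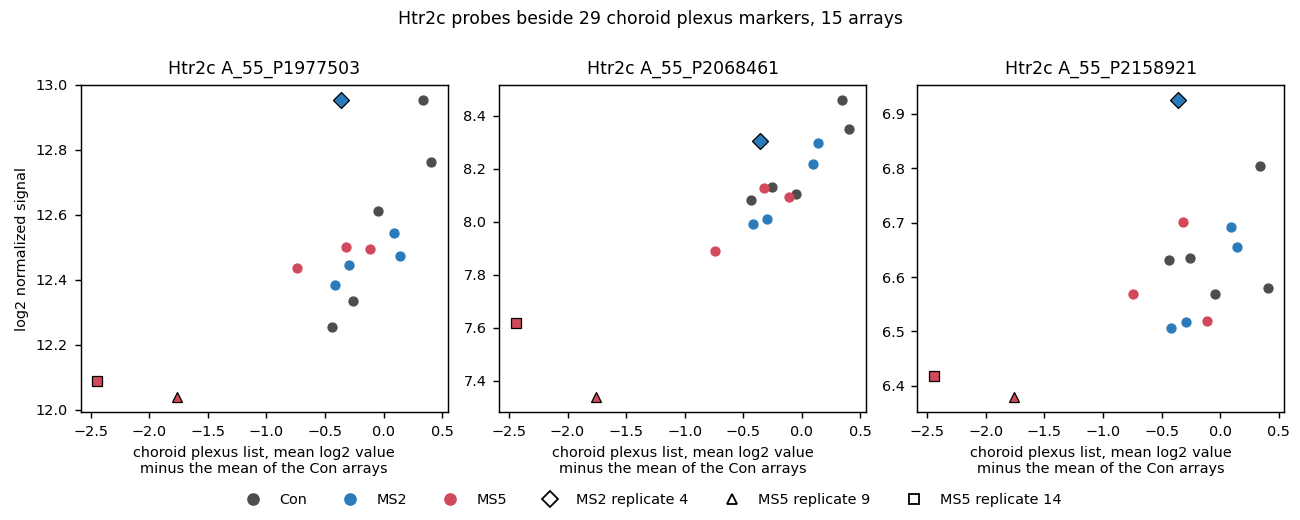
Log2 normalized signal of the 3 Htr2c probes against the mean of 29 choroid plexus markers on each of 15 arrays. MS5 replicates 9 and 14 lie at the low end of both axes in all 3 panels, and MS2 replicate 4 reads high for Htr2c at a choroid plexus mean of -0.36.

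Several miRs lie in Htr2c introns, and 8 of the 9 miR arrays carried the animal number of an mRNA array. The miR-448 probe set (named without an arm) read 6.76 to 7.61 in Con and 6.92 to 7.52 in MS2, whereas in MS5 it read 4.81 in replicate 12, 4.71 in replicate 14 and 7.25 in replicate 9. By the labelled animal numbers, replicate 14 was low for both Htr2c mRNA and miR-448, replicate 9 for the mRNA alone and replicate 12 for the miR alone. Whether a number names the same animal on both kinds of array was not tested. With 3 arrays per group these values are given without a test. The miR-764-3p probe set read 4.00 to 4.78 in MS5 and 4.77 to 5.40 on the other arrays, and miR-764-5p read 4.76 to 5.27 in MS5 and at least 5.06 on the others.

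The other Gq-coupled receptors showed no difference past the unadjusted threshold. Htr2a, the 5-HT2A receptor of cortical pyramidal cells and interneurons (probe at chr14:75106454-75106513, mm9), read 7.28, 7.43, 7.59, 7.60 and 7.62 in Con, 7.45, 7.49, 7.53, 7.60 and 7.84 in MS2, and 7.45, 7.53, 7.58, 7.67 and 7.71 in MS5. The groups overlapped, and the differences from Con were 0.08 in MS2 (95% interval -0.10 to 0.26) and 0.08 in MS5 (-0.09 to 0.26). Without MS2 replicate 4, the highest array, the MS2 difference was 0.01, and without MS5 replicates 9 and 14 the MS5 difference was 0.02. Htr2b, the 5-HT2B receptor best known from heart and gut (chr1:87995712-87995771), read 6.20, 6.20, 6.22, 6.25 and 6.30 in Con, 6.06, 6.18, 6.22, 6.32 and 6.35 in MS2, and 6.19, 6.22, 6.25, 6.25 and 6.26 in MS5. Its differences from Con were -0.01 (-0.12 to 0.10) in MS2 and -0.00 (-0.11 to 0.11) in MS5, and it sat near the background of the arrays.

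Among receptors coupled to inhibitory G proteins, Htr1a encodes the 5-HT1A receptor, an autoreceptor of raphe neurons that hippocampal pyramidal cells also carry (probe at chr13:106237236-106237295, mm9). Its levels were 7.68, 7.75, 8.02, 8.22 and 8.28 in Con, 7.63, 7.69, 7.84, 8.15 and 8.23 in MS2, and 7.49, 7.91, 7.93, 8.00 and 8.38 in MS5. The MS5 arrays spanned more than the whole Con range, and the differences from Con were -0.08 in MS2 (95% interval -0.44 to 0.27) and -0.05 in MS5 (-0.40 to 0.31). Htr1b, the 5-HT1B autoreceptor of axon terminals (chr9:81525015-81525074), read 6.04, 6.10, 6.12, 6.14 and 6.45 in Con, 6.07, 6.08, 6.09, 6.46 and 6.63 in MS2, and 6.09, 6.20, 6.22, 6.36 and 6.66 in MS5. It had high values in each group, with differences of 0.10 (-0.18 to 0.37) and 0.13 (-0.14 to 0.41) from Con. In MS2 the highest Htr1b value was that of replicate 4, without which the difference from Con was 0.01. Htr5a, the 5-HT5A receptor (chr5:28181550-28181609), read 6.20, 6.26, 6.30, 6.38 and 6.44 in Con, 6.27, 6.29, 6.37, 6.39 and 6.40 in MS2, and 6.15, 6.20, 6.31, 6.42 and 6.53 in MS5. Its group means lay within 0.02 of each other and its intervals against Con within -0.14 and 0.17.

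Htr3a, the subunit that every 5-HT3 receptor channel needs (probe at chr9:48707773-48707832, mm9), had the largest within-group SD of the 14 receptor probes, 0.42, above that of 97.5% of all probes. It read 8.08, 8.27, 8.37, 8.40 and 8.75 in Con, 6.78, 8.09, 8.31, 8.32 and 8.37 in MS2, and 8.02, 8.13, 8.15, 8.16 and 8.24 in MS5. The value of 6.78 was that of MS2 replicate 4, which had low principal neuron markers and a high mean over the thalamus and hypothalamus list. What part this played in the Htr3a value was not tested. MS2 differed from Con by -0.40 (95% interval -0.92 to 0.11, limma p = 0.117, exact permutation p = 0.254), and by -0.10 without that array (limma p = 0.336, exact permutation p = 0.484). MS5 differed from Con by -0.23 (-0.75 to 0.28, limma p = 0.348, exact permutation p = 0.0635). Since the 3 groups shared an estimate of the spread, the limma p of this difference was 0.0303 with MS2 replicate 4 left out and 0.0427 with only the MS5 and Con arrays in the fit, whereas the exact permutation p, which does not use the MS2 arrays, was the same 0.0635. The adjusted p with all arrays was 1.00. The MS5 arrays lay between 8.02 and 8.24, and 4 of the 5 Con arrays lay above all of them.

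Htr4, Htr6 and Htr7 couple to Gs. Htr4, the 5-HT4 receptor of hippocampal principal neurons, read 9.14, 9.27, 9.31, 9.34 and 9.48 in Con, 8.44, 8.97, 9.25, 9.28 and 9.35 in MS2, and 9.03, 9.37, 9.41, 9.46 and 9.53 in MS5 at probe A_55_P1990400. The groups overlapped, with MS2 replicate 4 the lowest array at 8.44. MS2 differed from Con by -0.25 (95% interval -0.57 to 0.06, limma p = 0.110, exact permutation p = 0.19), or by -0.10 without replicate 4, and MS5 differed by 0.05 (-0.26 to 0.37). The difference of MS5 from MS2 was 0.30 (-0.01 to 0.62, limma p = 0.0581, exact permutation p = 0.135). With the slide as a block its limma p was 0.0315 and its exact permutation p within slides 0.110, and without MS2 replicate 4 the difference was 0.15 (limma p = 0.162, exact permutation p = 0.278). The second Htr4 probe read 5.92 to 6.06 on all arrays, at the level of background.

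Htr6, the 5-HT6 receptor found on primary cilia of neurons, had its brighter probe A_51_P183497 at chr4:138617683-138617742 (mm9) and a second, A_55_P2028350, at chr4:138630767-138630826. The brighter probe read 6.69, 6.76, 6.76, 6.85 and 7.10 in Con, 6.81, 6.83, 6.85, 6.87 and 7.27 in MS2, and 6.80, 6.82, 6.87, 6.96 and 7.19 in MS5. A high array stood above the rest in each group, and the differences from Con were 0.09 in MS2 (95% interval -0.13 to 0.31) and 0.10 in MS5 (-0.12 to 0.31). The high MS2 array was replicate 5, without which the MS2 difference was 0.01. The second probe ranged from 6.43 to 7.02 over all arrays, with differences of 0.05 (-0.13 to 0.23) and 0.01 (-0.17 to 0.19).

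Htr7, the 5-HT7 receptor, which is strongly transcribed in thalamus and also in hippocampal CA3 (probe at chr19:36033339-36033398, mm9), read 11.46, 11.47, 11.54, 11.58 and 11.59 in Con, 11.08, 11.38, 11.47, 11.50 and 12.25 in MS2, and 11.49, 11.56, 11.57, 11.62 and 11.80 in MS5. The Con arrays were the tightest, with an SD of 0.06 against 0.43 in MS2, and the MS2 group held both the highest array of all, replicate 4, and the lowest, replicate 5. MS2 differed from Con by 0.01 (95% interval -0.31 to 0.34) and MS5 by 0.08 (-0.24 to 0.41). Without MS2 replicate 4 the difference of MS2 from Con was -0.17 (limma p = 0.0570, exact permutation p = 0.0556). That of MS5 from MS2 was then 0.25 (limma p = 0.00810, exact permutation p = 0.0238), in place of 0.07 with all arrays (exact permutation p = 0.722). In that fit 6.78% of all probes had an unadjusted p under 0.05 for MS5 versus MS2, against 3.97% with all arrays. The adjusted limma p of this Htr7 contrast was at least 0.586 under every alternative tried.

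**Figure D4:**
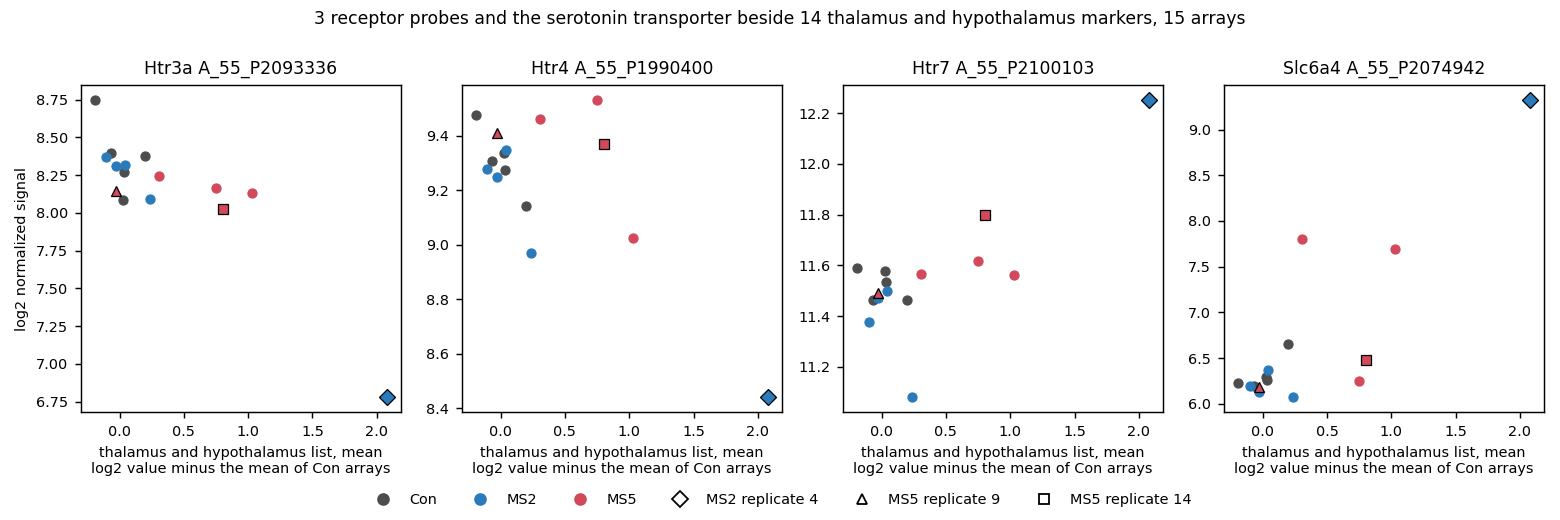
Log2 normalized signal of Htr3a, Htr4, Htr7 and the serotonin transporter gene Slc6a4 against the mean of 14 thalamus and hypothalamus markers on each of 15 arrays. MS2 replicate 4 (diamond), at 2.08 on the horizontal axis, is the lowest array for Htr3a and Htr4 and the highest for Htr7 and Slc6a4.

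The array of MS2 replicate 4 was the lowest or highest of its group at 11 of the 14 receptor probes, and at 54.6% of all probes. On the other arrays this held at 1 to 10 of the 14 receptor probes and at 29.4% to 54.3% of all probes. In the order of group means, MS5 was lowest at all 3 Htr2c probes and MS2 was lowest at Htr3a, at Htr4 A_55_P1990400, at Htr1a and, by 0.01, at Htr2b. Apart from Htr2c A_55_P2068461 in MS5, no neighbouring groups in that order differed beyond their spread at the unadjusted threshold.

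The receptor genes were also compared with all other named genes by the correlation of deviations from group means, over 15 arrays that share their tissue and normalization and among 20188 to 20190 probes well above background on every array. Htr6 was most like Rxrg (0.98), Pde10a (0.97) and Stk32a (0.97), and Pde10a encodes a phosphodiesterase abundant in striatum. Htr4 was most like Trp73 (0.98), Synm (0.96) and Neurod1 (0.96), the last a neuronal transcription factor of the dentate gyrus. Htr2c A_55_P1977503 was most like Pgcp (0.96), Cox7a1 (0.93), Gstt3 (0.92), Zic1 (0.92) and Ace (0.91), of which Ace is among the choroid plexus markers. Htr1a was most like Lancl2 (0.95), Lrfn2 (0.94) and Prkar1b (0.92), Htr5a like Prdm11 (0.92), Gimap1 (0.92) and Tshz3 (0.91), and Htr2a like Crlf2 (0.91), Ncam2 (0.90) and Camk2g (0.90).

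The likeness to other genes was recomputed only without MS2 replicate 4, and it fell most for Htr3a and Htr7. Other arrays were not left out for it. Htr3a was most like Map4k5 (0.96), Ppp1r3e (0.96) and Prkd1 (0.95), and without MS2 replicate 4 these values were 0.68, 0.78 and 0.75. Htr7 was most like Pnoc (0.96), the nociceptin precursor, Myo19 (0.96) and Tmem130 (0.96), and without that array the values were 0.82, 0.87 and 0.81. The values of Htr2a and Htr4 were also lower without it, at 0.86, 0.83 and 0.85 for Htr2a and 0.93, 0.88 and 0.93 for Htr4. Among receptor probes of different genes the highest likeness was that of Htr3a and Htr4 (0.83), which was 0.44 without MS2 replicate 4, and the lowest was that of Htr3a and Htr7 (-0.78), which was 0.18 without it.

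The rest of the serotonin pathway was followed in 51 genes of a list of 52, each by its brightest probe. At an adjusted p under 0.05, 0 genes passed in each contrast, as did 0% of all probes. At an unadjusted p under 0.05, 3 of 51 genes passed for MS2 versus Con (2 higher, 1 lower), 2 for MS5 versus Con (1 higher, 1 lower) and 2 for MS5 versus MS2 (both lower), against 3.95%, 4.23% and 3.89% of all gene names by their brightest probe. The median differences over the list were 0.03, 0.03 and 0.00. With MS2 replicate 4 and MS5 replicates 9 and 14 left out, a setting chosen after the values were seen, the counts were 3, 9 and 8 of 51, against 3.43%, 4.79% and 4.65% of all gene names in the same fit.

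The 4 other receptor genes on the array, Htr1d, Htr1f, Htr3b and Htr5b, had differences from Con between -0.28 and 0.19 and passed no threshold, and Htr3b, a channel subunit that needs Htr3a, was well above background on 0 of 15 arrays. Htr1f read 6.95 on MS2 replicate 4 and 7.78 to 8.28 on the other arrays. Among the 7 genes of serotonin synthesis, which include the tryptophan hydroxylases Tph1 and Tph2, 0 passed, with differences from Con between -0.18 and 0.31.

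Of the 3 breakdown genes, Maoa, which encodes the monoamine oxidase that prefers serotonin, read 10.07, 10.29, 10.31, 10.35 and 10.49 in Con, 10.45, 10.48, 10.54, 10.56 and 11.03 in MS2, and 10.22, 10.26, 10.50, 10.51 and 10.65 in MS5. The MS2 arrays all lay above 4 of the 5 Con arrays, and MS2 replicate 4 was the highest. The MS2 difference was 0.31 (95% interval 0.06 to 0.55, limma p = 0.0172, adjusted p = 0.970, exact permutation p = 0.0238), and without that array it was 0.20 (limma p = 0.0429, exact permutation p = 0.0317). In MS5 the difference was 0.12 (-0.12 to 0.37).

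The transporters differed in their pattern. Slc18a1, a vesicular monoamine transporter mainly of endocrine cells, was well above background on 11 of 15 arrays and read 6.18, 6.37, 6.38, 6.51 and 6.58 in Con, 6.29, 6.31, 6.35, 6.36 and 6.37 in MS2, and 6.09, 6.09, 6.11, 6.19 and 6.33 in MS5. In MS5, 3 arrays (replicates 9, 13 and 14) lay below all Con arrays, and on the same 3 the spot was not well above background, with a difference of -0.24 (95% interval -0.38 to -0.10, limma p = 0.00286, adjusted p = 1.00, exact permutation p = 0.0238). The size depended on how background was handled, and it was -0.67 with a normexp offset of 0 and -1.06 with the scanner's processed signal. The difference of MS5 from MS2 was -0.17 (limma p = 0.0223, exact permutation p = 0.0238). Slc6a4, the plasma membrane serotonin transporter, did not pass the threshold and read 6.19 to 6.65 in Con, but its value was 9.32 on MS2 replicate 4, 7.81 on MS5 replicate 13 and 7.69 on MS5 replicate 8. These 3 arrays had means of 2.08, 0.31 and 1.03 over the thalamus and hypothalamus list, where the Con arrays lay between -0.19 and 0.19, and MS5 replicates 14 and 12, with means of 0.81 and 0.75, did not have high Slc6a4. Slc6a4 is itself among the 6 raphe markers. The means of MS2 replicate 4 and MS5 replicates 13 and 8 over that list (0.86, 0.39 and 0.24) are therefore not a separate observation. The serotonin synthesis enzyme Tph2 read 6.12, 7.06 and 6.39 on these 3 arrays and 6.32 to 6.78 on the others.

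**Figure D5:**
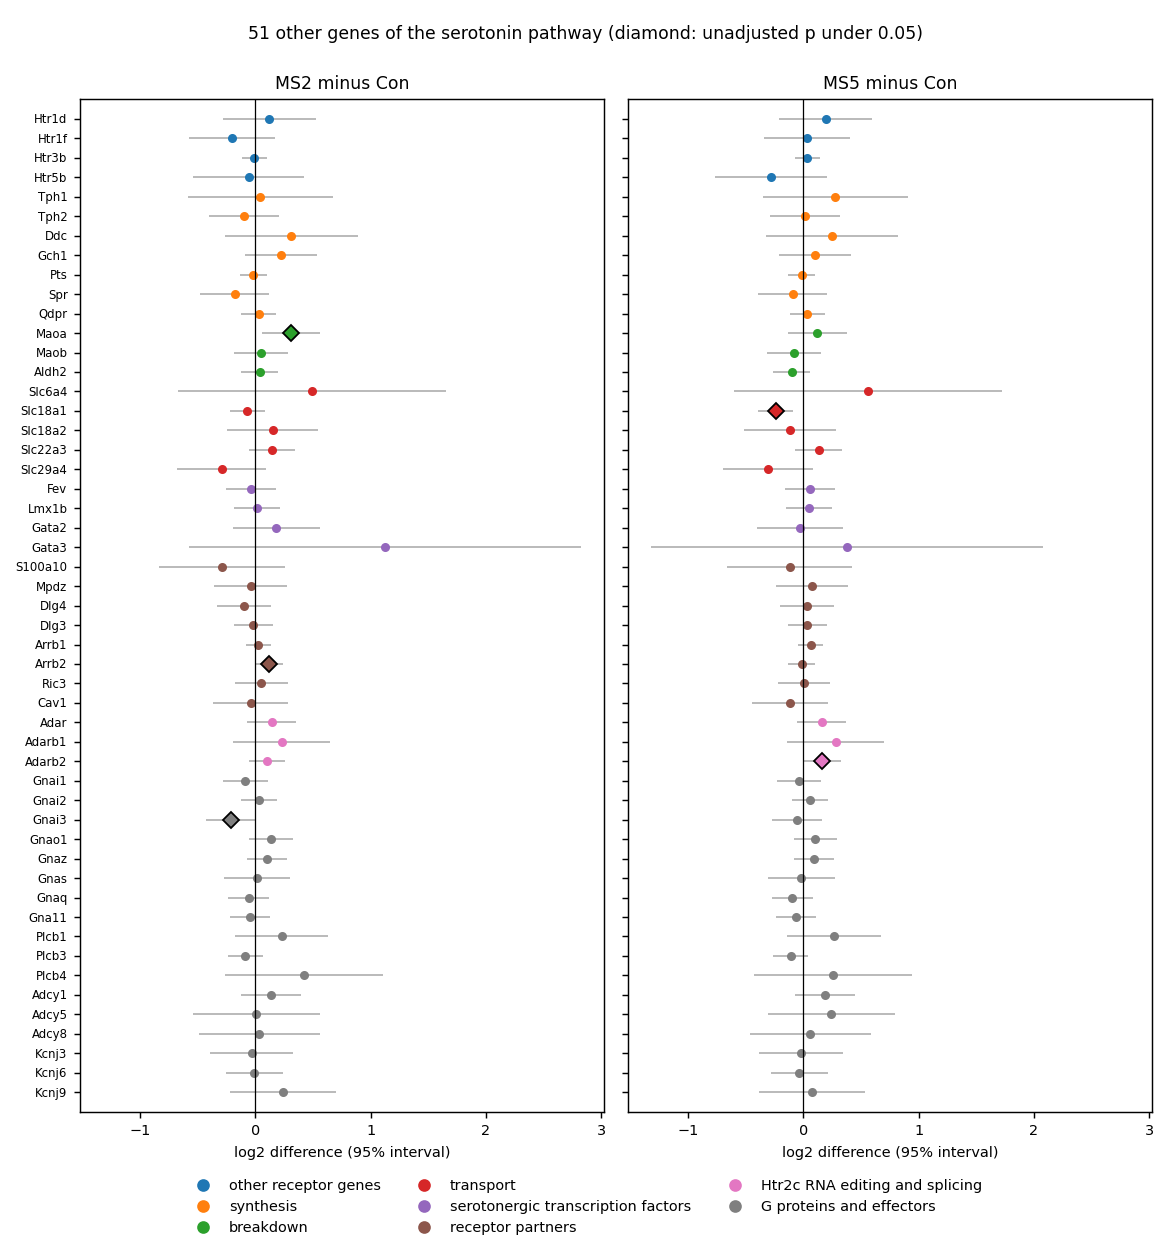
Log2 differences from Con with 95% intervals for 51 other genes of the serotonin pathway, coloured by role. Maoa, Arrb2 and Gnai3 in MS2 and Slc18a1 and Adarb2 in MS5 passed an unadjusted p under 0.05 (diamonds), and Slc6a4 and Gata3 have wide intervals.

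Among the 8 receptor partners, Arrb2, the arrestin that takes receptors out of signalling at the membrane, had a difference of 0.12 in MS2 (95% interval 0.01 to 0.23, limma p = 0.0328, adjusted p = 0.970, exact permutation p = 0.0317) and of -0.14 between MS5 and MS2 (limma p = 0.0179, exact permutation p = 0.0397). It read 11.31 to 11.48 in Con, 11.47 to 11.56 in MS2 and 11.28 to 11.54 in MS5. Without MS2 replicate 4 its MS2 difference was 0.11 (limma p = 0.0678, exact permutation p = 0.0635). Of the 3 genes for editing enzymes that act on or bind RNA such as that of Htr2c, Adarb2, a family member that binds RNA without editing it, had a difference of 0.16 in MS5 (0.01 to 0.31, limma p = 0.0352, adjusted p = 1.00, exact permutation p = 0.0952). Adar and Adarb1 had differences of 0.16 (-0.04 to 0.36) and 0.28 (-0.13 to 0.69) in MS5 and did not pass. The Adarb2 difference was 0.12 without MS5 replicate 14 (limma p = 0.103, exact permutation p = 0.175), and its limma p was under 0.05 in 10 of 15 fits that left out 1 array. Adarb2 is also on the list of interneuron markers, and it is the 1 of those 16 genes that passed in MS5.

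Of the 17 G proteins and effectors, Gnai3, an inhibitory alpha subunit, had a difference of -0.21 in MS2 (95% interval -0.42 to -0.00, limma p = 0.0491, adjusted p = 0.970, exact permutation p = 0.0635). Its MS2 arrays read 12.83 to 13.24 and its Con arrays 13.18 to 13.40, and without MS2 replicate 5 the difference was -0.14 (limma p = 0.144, exact permutation p = 0.0952). The 4 serotonergic transcription factors measured passed no threshold. Gata3 had the widest interval of the list, -0.57 to 2.82 in MS2, around a difference of 1.13 that rested on MS2 replicate 4, where it read 11.78. Without that array the difference was 0.14 (exact permutation p = 0.167). Slc6a4, Gata3, Htr1f, Adar and Adarb1 passed no threshold and were chosen for mention after their values were seen.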

How the data were processed

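Hippocampal mRNA of 15 mice (5 Con, 5 MS2, 5 MS5) was hybridized to single-colour Agilent arrays, each with 62976 spots. The deposited scanner files hold spot intensity read with Agilent Feature Extraction 10.7.1.1. The authors corrected the background by normexp with an offset of 50, quantile-normalized the arrays and deposited log2 values, and rebuilding these from the intensities gave the same values. Quantile normalization forces equal distributions on all arrays, so a change shared by most genes would not be visible. The authors' miR values of 9 arrays, also deposited as log2 after background correction, quantile normalization and median polish, was used for values alone.

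Differences were tested in R 4.3.3 with limma 3.58.1 (files read with the data.table package, version 1.17.8), the 3 groups in 1 fit, with Benjamini-Hochberg adjustment over 55681 non-control probes and no filter on dim probes. Single values were also tested by two-sided exact permutation over 252 assignments. The same test with arrays left out, and within slides, was added after the values were seen. The number of arrays limits the precision. Slide, array weights, the normexp offset, the scanner's processed signal, smaller fits and left-out arrays were tried as alternatives. A marker list's level is the mean of its genes' brightest probes minus the Con mean. Groups followed the sample labels, and animal numbers do not pair samples between groups. Receptor genes, pathway genes and marker lists were chosen with earlier results of these data known. Each receptor probe was reported, and each pathway gene past an unadjusted p under 0.05 in any contrast was named, as were the 3 genes most like each receptor gene, or 5 for Htr2c. Htr1b and Htr2b, which were not well above background on all arrays, were not ranked for likeness.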

Additional observations from a re-analysis of the deposited data

Results flagged for a closer look

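Groups of 5 arrays were tested at the receptor probes and at Maoa, Slc6a4, Slc18a1, Arrb2, Adarb2 and Gnai3. Other pathway genes with single arrays given above, such as Htr1f and Gata3, were left out. In 8 of 60 groups the highest or lowest array lay far from its nearest, with a gap over the group's range above 0.71. Chance gives this in about 1 group in 20 when groups are independent and not picked by their values. Here the groups share the same arrays, and the pathway genes were picked from these data. The count therefore cannot be set against that rate. MS2 replicate 4 accounted for 4 of the 8. Its Htr3a value of 6.78 was the lowest of its group, where the nearest was 8.09. Its Htr2c A_55_P1977503 value of 12.95 was the highest, with the nearest at 12.54, its Maoa value of 11.03 was the highest, with the nearest at 10.56, and its Slc6a4 value of 9.32 was the highest, with the nearest at 6.37. MS2 replicate 5, the array with the dimmest spots, had the highest Htr6 A_51_P183497 value of its group, 7.27, with the nearest at 6.87. In Con, replicate 19 had the highest Htr1b value, 6.45 (nearest 6.14), and the highest Slc6a4 value, 6.65 (nearest 6.29), and replicate 17 had the highest Htr2c A_55_P2158921 value, 6.80 (nearest 6.64).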

How the results depend on the processing

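Over 42 receptor probe differences and 25 alternatives, 1023 of 1044 values kept their side of the unadjusted threshold, 6 lost it, 14 gained it and 1 changed sign and passed. That was Htr7 in MS2 versus Con, -0.17 without MS2 replicate 4 and MS5 replicates 9 and 14 together, against 0.01. Another 98 changed sign with neither value past the threshold, and 0 receptor probes reached an adjusted p under 0.05 under any alternative. Leaving out several arrays together was chosen after seeing the data. Contrasts are given in the order MS2 versus Con, MS5 versus Con, MS5 versus MS2. The count of all probes by the study's rule was 13, 127 and 72. It was 230, 401 and 370 with a normexp offset of 0 and 522, 623 and 592 with the scanner's processed signal. Under each of these settings 1 of 51 pathway genes passed the unadjusted threshold in the first and last contrasts. Of all gene names, 3.66% and 3.68% did so with the offset of 0, and 2.79% and 2.69% with the processed signal. Array weights gave 4171, 3575 and 5395 probes at the unadjusted threshold, and 204 and 159 by the study's rule in the contrasts of MS5. In MS5 versus Con 3 of 14 receptor probes passed, where 6.42% of all probes did, with Htr2c A_55_P1977503 at -0.33 and A_55_P2158921 at -0.15. There 4 of 51 pathway genes passed, where 6.97% of all gene names did. With the slide as a block 2 of 14 receptor probes passed in MS5 versus MS2, where 4.82% of all probes did, with Htr4 at 0.34. With only the 2 groups compared, 2 passed in MS5 versus Con, where 5.76% of all probes did, with Htr3a at -0.23, and 38 probes met the study's rule in MS5 versus MS2. Without MS5 replicates 9 and 14 the contrasts of MS5 gave 0 and 0 receptor probes. Over all probes they gave 1293 and 1266 unadjusted and 42 and 22 by the study's rule. Against Con 1 pathway gene passed, where 2.34% of all gene names did. Without MS2 replicate 4 as well, 1 receptor probe passed in MS2 versus Con and 0 in MS5 versus Con, where 3.76% and 4.38% of all probes did, 8 and 140 probes met the study's rule in the first and last contrasts, and 9 and 8 of 51 pathway genes passed in the contrasts of MS5, where 4.79% and 4.65% of all gene names did. Leaving out 1 array at a time gave 1634 (without Con replicate 19) to 3666 (without MS2 replicate 5), 1503 (without MS5 replicate 14) to 3298 (without MS2 replicate 4) and 1535 (without MS5 replicate 9) to 3773 (without MS2 replicate 4) probes unadjusted, 7 to 38, 61 to 213 and 15 to 106 by the study's rule, 0 to 0, 1 to 2 and 0 to 3 receptor probes, and 0 to 4, 1 to 5 and 1 to 4 pathway genes. In the fits that left out 1 array, the share of all gene names past the unadjusted threshold ran from 2.78% to 6.52%, 2.85% to 6.58% and 2.69% to 6.88%. The causes were not tested. No paired analysis was possible because the sample labels used here give no litter. The paper states that treated pups spent the night with control littermates, so a shared litter could not be taken into account. Dim probes limit what could be seen for Htr1b, Htr2b and Htr4 A_52_P581594.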
